A study of Mus musculus with 12 samples.

Results

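Transcripts of 9 scavenger receptors and related glycoproteins were followed in cultured mouse peritoneal macrophages: Cd36, Scarb1, Scarb2, Msr1, Marco, Olr1, Stab1, Cd68 and Cd163. They were chosen by name with earlier results of these data known, as were the gene lists below. Their counts beside those of all tested genes are therefore descriptions. All 9 were found among the 24279 rows of the expression table. Macrophages of wild-type (WT) and Pim1-/- mice received PBS or oxidized low-density lipoprotein (oxLDL, 20 µg/mL for 8 h), with 3 RNA-seq libraries in each of the 4 groups. The strain, sex and age of the mice, how Pim1 was disrupted and how long PBS was applied are not given in the sources used here. Whether libraries of 1 group are separate mice or repeat cultures is not labelled, so p-values measure only the spread between these samples, which may be technical.

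Scavenger receptors are grouped by function rather than by descent: they are membrane proteins of several structural types that bind polyanionic ligands, among them lipoproteins altered by oxidation or acetylation. Unlike the LDL receptor, the main uptake receptors are not shut down by cell cholesterol, and macrophages that take up modified lipoprotein can become lipid-filled foam cells. Of the 9 genes, Cd36, Scarb1 and Scarb2 encode the class B proteins, Msr1 and Marco encode class A trimers with collagenous stalks, and Olr1 encodes the lectin-like receptor LOX-1. Stab1 and Cd163 encode large endocytic receptors, and Cd68 encodes macrosialin, a heavily glycosylated protein of late endosomes and lysosomes.

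Levels are in TPM, transcript abundances corrected for transcript length that sum to 1000000 in each library. Genes can therefore be compared within a library, but the sequencing depth is unknown. Changes were tested with limma on log2(TPM + 1) over the 12594 genes that reached 1 TPM in at least 3 libraries, and a gene was called at an adjusted p under 0.05. Of the 9 genes 8 passed this filter, and Cd163 did not. Macrophage markers, a list of 6 genes, summed to 9542 to 22241 TPM over the 12 libraries. Pim1 was lower in Pim1-/- cells averaged over both treatments, by a log2 change of -2.43 (SE 0.461, limma adjusted p = 0.00971). Within each treatment it did not pass (limma adjusted p = 0.0662 in PBS and 0.321 in oxLDL). Its levels were 10.2 to 30.6 TPM in Pim1-/- PBS and 12.3 to 47.8 TPM in Pim1-/- oxLDL. They were 68.5 to 93.1 TPM in WT PBS and 56.0 to 365 TPM in WT oxLDL. Library 3 of WT PBS stood apart, with 12867 rows at 0 against 8204 to 9964 elsewhere, and its T and NK cell markers summed to 465 TPM against at most 17.1 TPM in the other 11 libraries. Library 2 of WT oxLDL was closest in rank to library 1 of Pim1-/- oxLDL, with a Spearman correlation of 0.977 across genes. The median change of all tested genes was -0.70 for oxLDL in WT, -0.50 for oxLDL in Pim1-/-, -0.41 for the loss of Pim1 in PBS and -0.16 for its loss in oxLDL. Each comparison was therefore repeated after scaling each library so that the median of its ratios to the average library is the same, which is named median scaling here.

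The promoters of 3 of the genes that changed with oxLDL are shown: Olr1 rose in both genotypes, Marco rose in WT cells, and Stab1 fell in both genotypes. Each is the 250 bases before the start of the gene in the RefSeq annotation of GRCm38.p6, on the minus strand, printed 5′ to 3′ along the gene. They lie at chr6:129507166-129507415 for Olr1, chr1:120505025-120505274 for Marco and chr14:31168642-31168891 for Stab1. Capitals mark matches to the AP-1 motif TGANTCA and to GAGGAA, a core recognised by the macrophage factor PU.1, on either strand.
Olr1: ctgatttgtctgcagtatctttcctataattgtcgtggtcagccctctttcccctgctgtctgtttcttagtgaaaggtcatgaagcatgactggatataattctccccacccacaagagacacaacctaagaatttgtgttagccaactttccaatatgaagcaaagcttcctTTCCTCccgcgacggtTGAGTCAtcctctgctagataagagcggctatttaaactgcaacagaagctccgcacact
Marco: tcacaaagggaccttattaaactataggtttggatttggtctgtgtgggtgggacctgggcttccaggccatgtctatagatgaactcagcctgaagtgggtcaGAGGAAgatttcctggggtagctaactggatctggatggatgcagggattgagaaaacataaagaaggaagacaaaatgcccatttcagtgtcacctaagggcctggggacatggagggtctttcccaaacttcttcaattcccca
Stab1: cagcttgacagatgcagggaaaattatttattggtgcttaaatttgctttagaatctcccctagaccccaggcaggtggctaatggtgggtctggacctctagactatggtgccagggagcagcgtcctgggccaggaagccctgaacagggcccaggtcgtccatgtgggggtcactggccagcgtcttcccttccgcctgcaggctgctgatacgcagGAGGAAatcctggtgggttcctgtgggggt
The Olr1 sequence held an AP-1 match 60 to 54 bases before the start and, on the other strand, a PU.1 match 76 to 71 bases before it. The Marco sequence held a PU.1 match 146 to 141 bases before the start, and the Stab1 sequence one 30 to 25 bases before it. The same windows of 32851 RefSeq promoters held the AP-1 motif in 6.75% and the PU.1 motif in 23.3%, so a PU.1 match is common. Of the 7 genes with a promoter in the RefSeq table, Cd68 was the other one with AP-1 matches, at 149 to 143 and at 24 to 18 bases before the start. The AP-1, PU.1 and NF-kB motifs did not match in Cd36 or Cd163, and Scarb2 held an NF-kB match, which 7.25% of promoters held. Cd36 also changed, in WT cells, and its promoter is not shown. Its window, chr5:17835897-17836146, lies within the span of the gene given below, and bases farther upstream were not searched. TATAAA matched in none of the 7, against 12.4% of promoters. These are matches of letters, and binding was not measured.

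Cd36 and Cd68 made up most of the RNA of the 9 genes in every library, and their order was not the same in all groups. Cd36 took 49.0 ± 12.5% (SD, n = 3) of the summed TPM of the 9 genes in WT PBS and 18.2 ± 12.0% in WT oxLDL. In the Pim1-/- groups it took 17.4 ± 9.16% with PBS and 5.69 ± 0.431% with oxLDL. Cd68 took 33.5 ± 14.7% and 57.4 ± 23.3% in WT, and 70.8 ± 12.6% and 84.0 ± 1.98% in Pim1-/-, without and with oxLDL. These are shares of transcript number, not of protein. The ratio of Cd68 to Cd36 was 0.538, 0.370 and 1.43 in the WT PBS libraries, so Cd36 led in 2 of the 3. In WT oxLDL it was 3.77, 10.7 and 1.05. In Pim1-/- it was 3.74, 2.26 and 11.1 with PBS and 13.2, 15.9 and 15.3 with oxLDL. Cd68 thus led in all 9 libraries of those groups, by the least in library 3 of WT oxLDL. Msr1 had mean shares of 5.74% to 17.0%, and Scarb2 had mean shares of 3.32% to 4.46%. Marco, Olr1, Stab1, Scarb1 and Cd163 were minor transcripts.

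**Figure D1:**
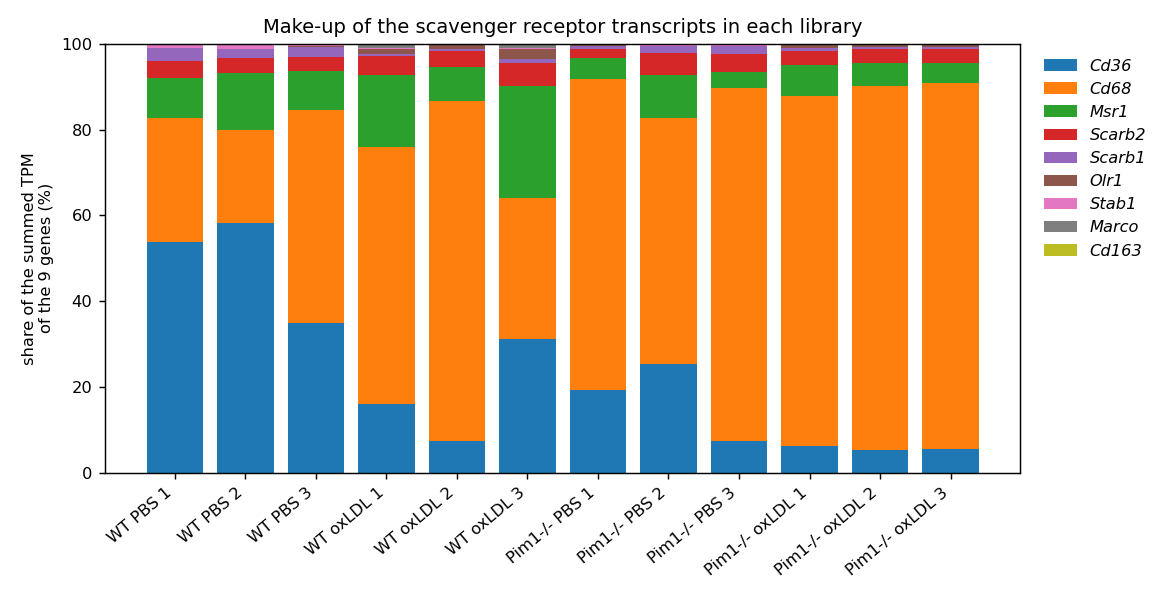
Share of the summed TPM of the 9 genes (percent, vertical axis) that each gene held in each of the 12 libraries (horizontal axis). Cd36 averaged 49.0% in WT PBS and 5.69% in Pim1-/- oxLDL, while Cd68 averaged 33.5% and 84.0%.

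With oxLDL, WT macrophages lost RNA of the class B receptors Cd36 and Scarb1 and of Stab1, and gained RNA of Marco and Olr1. In Pim1-/- macrophages Scarb1 and Stab1 fell and Olr1 rose, and the change of Cd36 and of Marco did not pass the test. In WT, 2 of the 8 tested genes rose, where 5.83% of all tested genes did, and 3 fell, where 27% of all tested genes did. In Pim1-/-, 1 rose and 2 fell, against 4.45% and 7.8% of all tested genes. With median scaling the counts were 2 up and 2 down in WT, against 12.2% and 8.18% of all genes, and 1 up and 1 down in Pim1-/-, against 6.91% and 4.39%. Groups that did not overlap in TPM were seen for Marco and Olr1 (higher) and for Cd36, Scarb1 and Stab1 (lower) in WT, against 7.95% and 34.7% of all tested genes. In Pim1-/- they were seen for Olr1 (higher) and for Scarb1 and Stab1 (lower), against 8.54% and 29.6%. The median change of the 8 was -0.06 in WT and -0.07 in Pim1-/-, and 0.87 and 0.51 with median scaling. In bulk RNA, fewer cells of a type and less RNA per cell cannot be told apart.

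**Figure D2:**
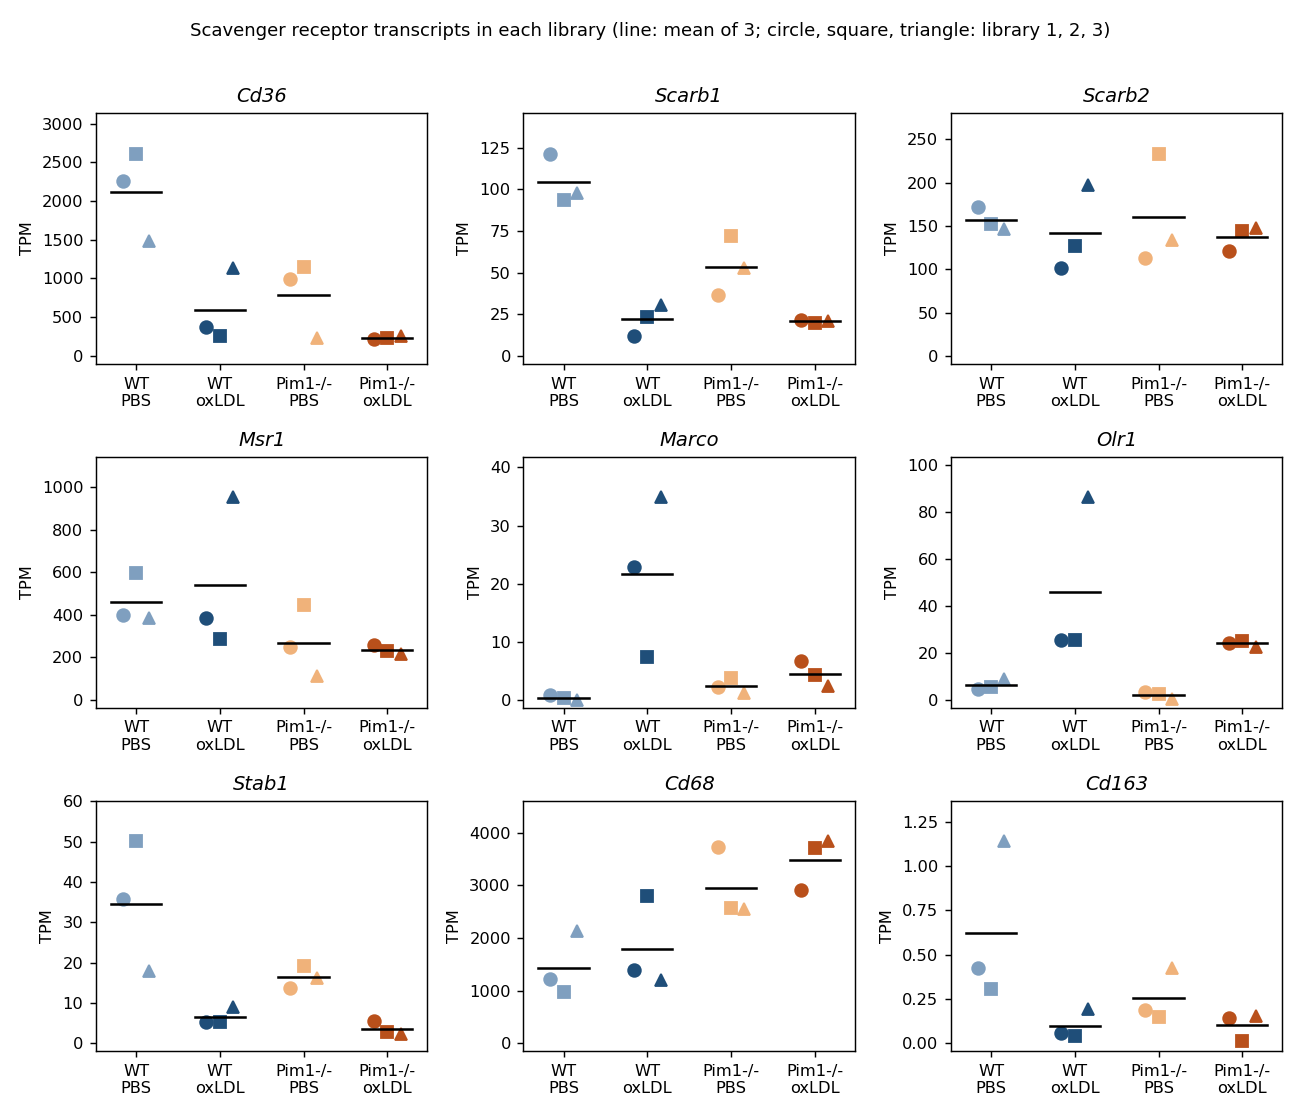
TPM of each of the 9 genes (vertical axes, linear and scaled per gene) in the 4 groups, with 1 symbol per library and a line at the mean of 3. Scarb1 and Stab1 sit lower in oxLDL than in PBS in both genotypes without overlap, Olr1 sits higher, and Marco is high in the 3 WT oxLDL libraries, at 7.26 to 34.8 TPM.

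CD36 binds oxidized phospholipids on LDL and also takes up long-chain fatty acids. Its gene lies on chromosome 5 (17781690 to 17888801, minus strand, GRCm38, GENCODE M21). Cd36 levels were 2263, 2610.4 and 1485 TPM under PBS in WT, against 367, 261 and 1134 TPM under oxLDL. All 3 treated libraries were below all 3 controls, with library 3 of WT oxLDL well above the other two. The log2 change was -2.11 (SE 0.626, limma adjusted p = 0.0202). It was -1.17 with median scaling (adjusted p = 0.157), and without a filter on low values the adjusted p was 0.0866. The call was also lost without library 1 or 2 of WT PBS or library 1 or 2 of WT oxLDL, each left out alone (adjusted p 0.0565 to 0.0874). Cd36 in Pim1-/- cells stood at 998, 1143 and 229 TPM in PBS and at 221, 232 and 251 TPM in oxLDL. Library 3 of Pim1-/- PBS lay among the treated libraries, and the log2 change was -1.44 (SE 0.626, limma adjusted p = 0.150). Without that library it was -2.18 (adjusted p = 0.0230). Leaving out the lowest library of the higher group must widen the difference, so this fit cannot serve as a test of Cd36.

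Scarb1 encodes SR-BI, the HDL receptor that moves cholesteryl ester into cells and cholesterol in both directions. It lies on chromosome 5 (125277087 to 125341094, minus strand), where the predicted gene Gm42633 overlaps it on the same strand, so reads of the shared stretch could be assigned to either. Scarb1 stood at 121, 93.5 and 97.6 TPM in WT PBS and at 12.2, 23.1 and 30.6 TPM in WT oxLDL. The groups were far apart, and the log2 change was -2.28 (SE 0.396, limma adjusted p = 0.000963), or -1.37 with median scaling (adjusted p = 0.00728). With Pim1 lost, levels were 36.5, 71.8 and 52.7 TPM after PBS and 21.6, 19.6 and 20.96 TPM after oxLDL. The groups again did not overlap, and the change was -1.28 (SE 0.396, limma adjusted p = 0.0488). That call lay close to the threshold: it was kept in 4 of 12 fits that each left out 1 library, and with median scaling the change was -0.73 (adjusted p = 0.163).

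Scarb2 encodes LIMP-2, which carries the enzyme beta-glucocerebrosidase to lysosomes, and lies on chromosome 5 (92441314 to 92506833, minus strand). It varied least of the 8 tested genes over the 12 libraries (SD of log2(TPM + 1) 0.336, against 0.709 to 1.71 for the others), with group means of 157 ± 13.3 TPM (SD, n = 3) with PBS and 142 ± 49.9 TPM with oxLDL in WT, and of 159.9 ± 64.3 TPM with PBS and 138 ± 14.8 TPM with oxLDL in Pim1-/-. None of its changes passed the limma test: -0.20 for oxLDL in WT (adjusted p = 0.718) and -0.15 for oxLDL in Pim1-/-. With median scaling these became 0.73 and 0.42, so that no direction can be given.

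Msr1, the class A receptor SR-A that takes up acetylated and oxidized LDL, lies on chromosome 8 (39581685 to 39642673, minus strand). It stood at 396, 596 and 383 TPM in WT PBS and at 385, 287 and 953 TPM in WT oxLDL. The treated libraries lay on both sides of the controls, with library 3 the highest of all 12. Its Pim1-/- levels were 247, 447 and 110.3 TPM after PBS and 256, 230.1 and 215 TPM after oxLDL, within the range of the controls. The log2 change with oxLDL was 0.07 in WT (SE 0.531, limma adjusted p = 0.930) and 0.02 in Pim1-/- (SE 0.531). With median scaling it was 1.009 and 0.59, which did not pass (adjusted p = 0.121 and 0.476).

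Marco, the other class A receptor, binds bacteria and inhaled particles as well as modified LDL, and lies on chromosome 1 (120474538 to 120505024, minus strand). Marco stood at 0.755, 0.284 and 0 TPM in WT PBS and at 22.8, 7.26 and 34.8 TPM in WT oxLDL. Marco was thus at or near 0 in every WT control and clearly present in every treated WT library. The log2 change was 3.87 (SE 0.548, limma adjusted p = 0.000199). This scale understates the change of a gene so low in PBS, and with a pseudocount of 0.1 it was 5.82. Marco in Pim1-/- cells stood at 2.21, 3.73 and 1.10 TPM in PBS and at 6.58, 4.30 and 2.27 TPM in oxLDL. These groups overlapped, and the change was 0.68 (SE 0.548, limma adjusted p = 0.436).

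Olr1, the LOX-1 gene, encodes an oxLDL receptor best known from endothelial cells, and lies on chromosome 6 (129485244 to 129507165, minus strand). Olr1 stood at 4.66, 5.16 and 8.84 TPM in WT PBS and at 25.5, 25.2 and 86.0 TPM in WT oxLDL. Every treated library was above every control, with library 3 of WT oxLDL the highest. The log2 change was 2.49 (SE 0.539, limma adjusted p = 0.00395). In Pim1-/- cells Olr1 stood at 3.23, 2.40 and 0.294 TPM in PBS and at 24.2, 25.0 and 22.6 TPM in oxLDL. The treated libraries were tightly grouped, and the change was 3.23 (SE 0.539, limma adjusted p = 0.00124). As a percentage of Cd36, which binds the same ligand, Olr1 went from 0.206, 0.198 and 0.595 in WT PBS to 6.96, 9.65 and 7.59 in WT oxLDL. In Pim1-/- cells the percentage went from 0.324, 0.210 and 0.128 to 11.0, 10.8 and 8.97. Endothelial markers, a list of 5 genes, summed to 2.65 to 8.40 TPM over all libraries.

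Stab1 encodes stabilin-1, an endocytic receptor of sinusoidal endothelium and of tissue macrophages. It lies on chromosome 14 (31139013 to 31168641, minus strand), where Nt5dc2 overlaps it on the plus strand; the library kit marks strand, but how strand was used in counting is not given in the sources used here. Stab1 stood at 35.7, 50.1 and 17.9 TPM in WT PBS and at 5.28, 5.19 and 9.01 TPM in WT oxLDL. The groups did not overlap, and the log2 change was -2.17 (SE 0.443, limma adjusted p = 0.00269), or -1.31 with median scaling (adjusted p = 0.0192). Without Pim1 the levels were 13.8, 19.1 and 16.3 TPM after PBS and 5.49, 2.92 and 2.35 TPM after oxLDL. The groups were again apart, and the change was -1.97 (SE 0.443, limma adjusted p = 0.00961). The call was lost without library 2 or library 3 of Pim1-/- oxLDL (adjusted p = 0.0542 and 0.0634).

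Cd68, widely used as a macrophage marker, lies on chromosome 11 (69664213 to 69666153, minus strand). It stood at 1217, 967 and 2128 TPM in WT PBS and at 1384, 2806 and 1195 TPM in WT oxLDL. In Pim1-/- cells it stood at 3733, 2578 and 2550.1 TPM in PBS and at 2920.3, 3705 and 3839 TPM in oxLDL. Treated and control libraries overlapped in both genotypes, and the changes with oxLDL were 0.30 in WT and 0.25 in Pim1-/- (limma adjusted p = 0.651 in WT). With median scaling they were 1.23 and 0.83, which did not pass (adjusted p = 0.124 and 0.406).

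Cd163, the receptor for haptoglobin-haemoglobin complexes, lies on chromosome 6 (124304656 to 124330527, plus strand). In WT it stood at 0.426, 0.306 and 1.14 TPM with PBS and at 0.0569, 0.0400 and 0.193 TPM with oxLDL. Pim1-/- libraries held 0.188, 0.151 and 0.423 TPM with PBS and 0.142, 0.0129 and 0.154 TPM with oxLDL. The WT treated libraries were all below the WT controls, and the other comparisons overlapped. Exact two-sided permutation tests gave p = 0.1 for oxLDL in WT, the smallest that 3 against 3 libraries can give, and p = 0.2 for oxLDL in Pim1-/-.

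**Figure D3:**
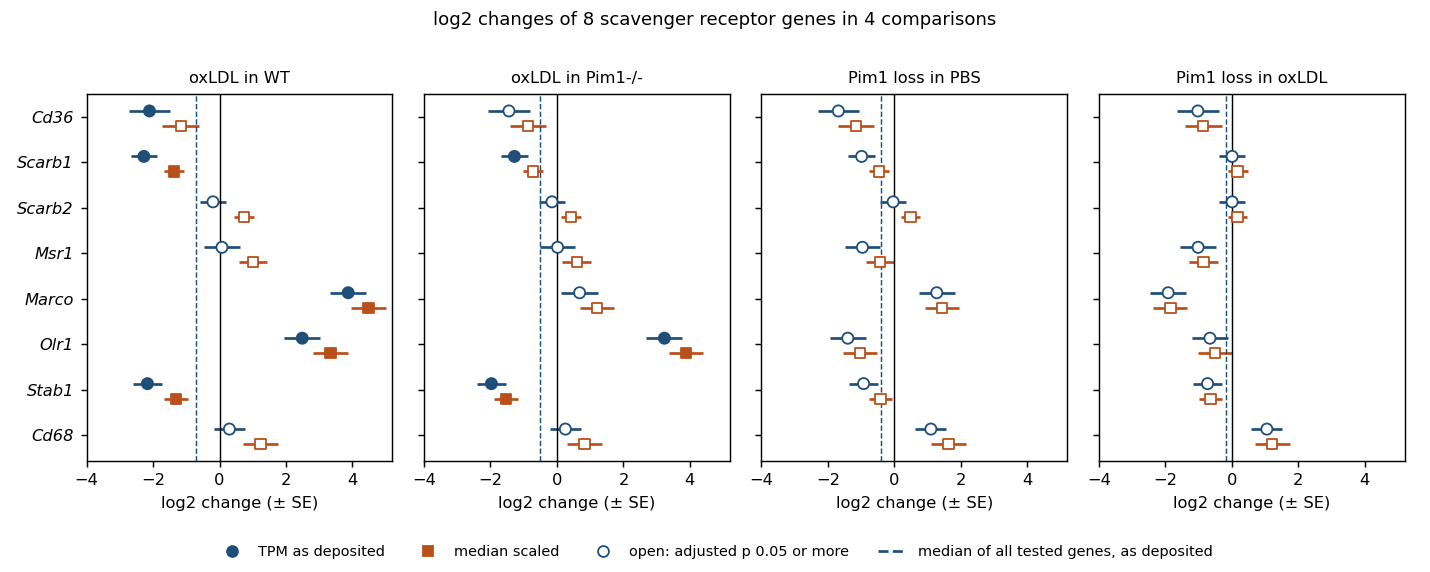
Log2 change (horizontal axis, bars are the limma SE) of the 8 tested genes in 4 comparisons, as deposited (circles) and with median scaling (squares); filled symbols passed the test and the dashed line is the median of all tested genes. Marco rose by 3.87 with oxLDL in WT and stood at 0.68, not called, in Pim1-/-; no symbol is filled in either comparison for the loss of Pim1.

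None of the 8 genes passed the limma test for the loss of Pim1 in PBS, where 4.67% of all tested genes did, or in oxLDL, where 0.00794% did. At an unadjusted p under 0.05 there were 5 of 8 in PBS and 2 of 8 in oxLDL, against 28.2% and 10.9% of all tested genes. With median scaling there were 2 of 8 in each, Cd68 and Marco, against 22.8% and 11.4%, so Cd36, Olr1 and Scarb1 were past that level in PBS in the unscaled values alone. These comparisons share libraries with those for oxLDL, so their values are not independent of the ones above. In PBS, Cd36 was lower in all 3 Pim1-/- libraries than in any WT library (log2 change -1.69, SE 0.626, limma adjusted p = 0.111). Olr1 (-1.40, adjusted p = 0.120) and Scarb1 (-0.99, adjusted p = 0.131) were arranged in the same way. Cd68 (1.10, adjusted p = 0.147) and Marco (1.27, adjusted p = 0.150) were higher in all 3 Pim1-/- libraries. Groups that did not overlap were seen in this direction in 6.62% of all tested genes, and in the lower direction in 21.1%. Msr1 (-0.96), Stab1 (-0.93) and Scarb2 (-0.04) overlapped between the genotypes.

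In oxLDL, Cd68 was higher in all 3 Pim1-/- libraries than in any WT library (log2 change 1.05, SE 0.467, limma adjusted p = 0.427), as were 6.88% of all tested genes. Cd36 (-1.02), Msr1 (-1.02), Marco (-1.92) and Olr1 (-0.66) were lower in all 3, as were 13% of all tested genes. For Olr1 the nearest libraries were close, at 25.0 TPM in Pim1-/- and 25.2 TPM in WT. The nearest in Pim1-/- and WT were at 251 and 261 TPM for Cd36 and at 256 and 287 TPM for Msr1. For Marco they were at 6.58 and 7.26 TPM, and for Cd68 at 2920 and 2806 TPM. In each of these genes the nearest WT library was library 2 of WT oxLDL. Scarb1 and Scarb2 each had a change of 0.01, with 95% intervals of -0.84 to 0.86 and -0.81 to 0.83. Averaged over both treatments, the change was 1.08 for Cd68 (SE 0.330, limma adjusted p = 0.0501) and -1.36 for Cd36 (SE 0.442, limma adjusted p = 0.0606). Neither passed, where 11.1% of all tested genes did, and 5 of the 8 genes had an unadjusted p under 0.05, where 31.9% of all tested genes did. With median scaling 2 of the 8, Cd36 and Cd68, had one, against 28.8% of all tested genes. Cd68 then passed the adjusted test, at 1.42 (adjusted p = 0.0404), where 4.65% of all tested genes were called higher. Without library 3 of WT PBS, library 2 of WT oxLDL or library 2 of Pim1-/- PBS, each left out alone, both Cd36 and Cd68 passed. The WT libraries left out were the lowest of their groups in Cd36 and the highest in Cd68. The Pim1-/- library was the highest of its group in Cd36 and below the group mean in Cd68. Leaving out such libraries must widen the differences between the genotypes, so these fits cannot serve as tests of either gene. These fits called 2534, 2070 and 2693 of the 12594 tested genes, against 1404 with all libraries. Cd36 and Cd68 each passed in 3 of the 12 fits that left out 1 library. Fibroblast markers, a list of 5 genes, summed to 301 to 675 TPM in WT PBS and to 656 to 1935 TPM in Pim1-/- PBS. These sums overlapped narrowly. In oxLDL the sums also overlapped, at 347 to 1070 TPM in WT and 494 to 1118 TPM in Pim1-/-. In PBS the genotypes overlapped in Col1a2, Col3a1, Dcn and Pdgfra but not in Col1a1. The part of these markers in the differences between the genotypes was not tested.

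Marco was the 1 gene of the 8 whose response to oxLDL differed between the genotypes at an unadjusted p under 0.05, where 3.03% of all tested genes had one. The difference of its responses, Pim1-/- minus WT, was -3.19 on the log2 scale (SE 0.775, 95% interval -4.85 to -1.53), with an unadjusted p of 0.00100 in the limma model of all tested genes. Adjusted over all tested genes it did not pass (adjusted p = 0.986), and 0.00794% of all tested genes did. For the other 7 genes the difference lay between -0.05 and 1.00, the highest being that of Scarb1 (95% interval -0.20 to 2.19). In oxLDL alone, Marco was lower in Pim1-/- than in WT by a log2 change of -1.92 (SE 0.548, limma adjusted p = 0.360). Library 2 of WT oxLDL was the one closest to a Pim1-/- library and the lowest in Marco of its group. Without it the change was -2.52 (limma adjusted p = 0.0293). Leaving out the lowest library of the higher group must widen the difference, so this fit cannot serve as a test of Marco. It called 317 of the 12594 tested genes for the loss of Pim1 in oxLDL, against 1 with all libraries.

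**Figure D4:**
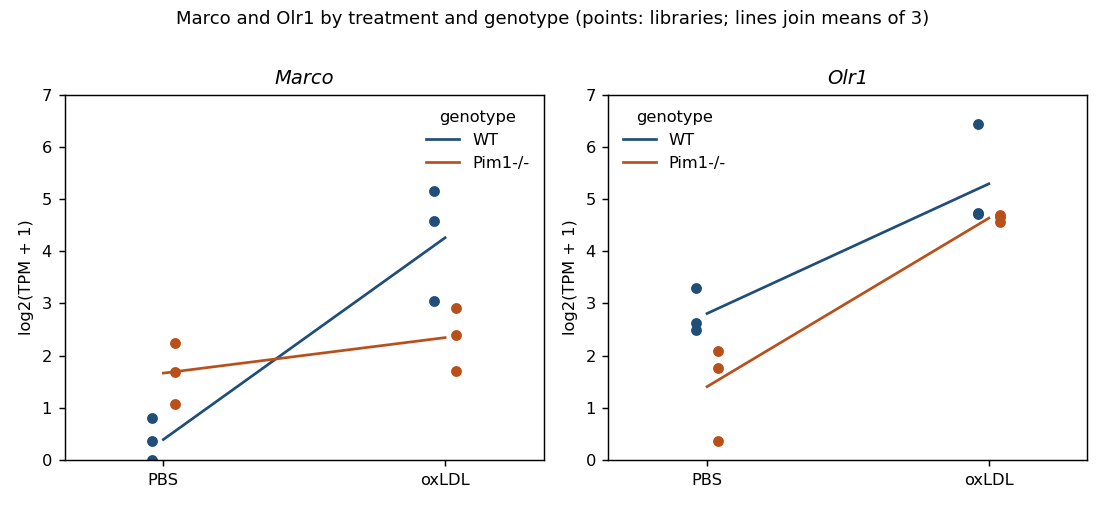
Log2(TPM + 1) of Marco and Olr1 (vertical axes) in PBS and oxLDL, with 1 point per library and lines joining the group means of WT and Pim1-/-. The Marco lines cross, with log2 changes of 3.87 in WT and 0.68 in Pim1-/-, while Olr1 has changes of 2.49 and 3.23.

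The patterns of the members over the 12 libraries were compared by the SD of the log2 ratio of TPM + 1 of a pair of genes, which is 0 for genes that keep a fixed ratio. Scarb1 and Stab1 were the closest pair of members (0.538), followed by Msr1 and Scarb2 (0.690) and by Cd36 and Stab1 (0.768). For comparison, the median value against genes with a mean of at least 5 TPM was 0.928 for Scarb1 and 1.04 for Stab1. It was 0.985 for Msr1, 0.815 for Scarb2 and 1.18 for Cd36. A small value can also come from genes that vary little, and Scarb2 had an SD of only 0.336. Olr1 and Stab1 were the most distant (2.68), while Marco and Olr1, both higher with oxLDL in WT, were at 1.28, the smallest value of any pair of members holding Marco or Olr1. Among 9098 genes with a mean of at least 5 TPM, the closest to Cd36 were Galnt1 (0.253) and Senp2 (0.273), and the closest to Olr1 were Ddx60 (0.269) and Pde4b (0.308). Scarb1 was closest to Cd22 (0.143) and Stab1 to Pkd1 (0.202) and Lrp1 (0.205). Msr1 was closest to Tbk1 (0.217), Scarb2 to Stx18 (0.127) and Cd68 to Yif1a (0.196). The closest to Marco was Icosl (0.746), a larger value than for the closest gene of each of the other 7 tested members. The libraries share their scale and composition, so these values are descriptions.

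Genes that work with the members were counted by list, to be read against the shares of all tested genes given above: 5.83% higher and 27% lower with oxLDL in WT, and 4.45% and 7.8% in Pim1-/-. Counts with median scaling are to be read against 12.2% higher and 8.18% lower in WT, and 6.91% and 4.39% in Pim1-/-. Of 8 tested receptors for native lipoproteins and their sorting relatives, 6 fell with oxLDL in WT and none rose, with a median log2 change of -2.34 against -0.70 for all tested genes. Sort1, a sorting receptor, fell by 2.77 and Lrp6, a Wnt co-receptor, fell by 2.69. In Pim1-/-, 4 of the 8 fell, most of all Sort1 (-2.14) and Lrp1, a large endocytic receptor (-1.99). With median scaling 5 fell in WT and 3 in Pim1-/-. Of 9 tested other scavenger and lipid-binding receptors, 2 rose in both genotypes, Cxcl16, whose membrane form binds oxLDL (2.02 in WT and 1.45 in Pim1-/-), and Scarf1, a class F receptor (1.38 and 1.499). In WT 3 fell, the beta-glucan receptor Clec7a most (-3.15) and the collectin Colec12 next (-2.03), and in Pim1-/- the mannose receptor Mrc1 fell (-2.08). With median scaling 2 rose and 2 fell in WT, and 2 rose and 1 fell in Pim1-/-.

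Of 14 tested partners of CD36 at the membrane and in signalling, 3 rose and 2 fell in WT, and 2 rose and 1 fell in Pim1-/-. The toll-like receptor Tlr2 rose by 3.28 in WT and by 4.47 in Pim1-/-, and the lipopolysaccharide co-receptor Cd14 rose by 3.89 and 2.73. Tlr4, the lipopolysaccharide receptor, fell in both (-2.45 and -2.64), and the kinase gene Fyn fell by 1.94 in WT. The 2 lower of 14 in WT are a smaller share than the 27% of all tested genes. With median scaling none of the 14 was called lower in WT and 6 were called higher, and in Pim1-/- 1 was lower and 4 were higher. Of 13 transcription factors and nuclear receptors that regulate members, 2 rose and 4 fell in WT, and 3 fell in Pim1-/-. The unscaled share lower in WT is near that of all tested genes. With median scaling 2 rose and 2 fell in WT and 2 fell in Pim1-/-. Pparg, the lipid-sensing nuclear receptor that drives Cd36 transcription, went from 72.1 ± 16.7 to 2.70 ± 0.806 TPM in WT (SD, n = 3; log2 change -4.30) and from 26.8 ± 17.2 to 0.913 ± 0.585 TPM in Pim1-/- (-3.74). Cebpa, a myeloid factor, fell by 4.24 in WT. Nr1h3, the oxysterol receptor LXR alpha, rose by 1.67 in WT, and Spi1, which encodes PU.1, rose by 1.63.

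Of 9 tested lysosomal partners of LIMP-2 and CD68, 3 fell in WT, the cholesterol exporter Npc1 (-3.07) and the membrane glycoprotein Lamp1 (-2.95) most, and 2 fell in Pim1-/-, Lipa, the acid lipase (-2.27), and Npc1 (-1.99). The unscaled share lower in WT is near that of all tested genes. With median scaling 1 rose and 3 fell in WT, where 8.18% of all tested genes fell. In Pim1-/- 2 fell, where 4.39% did. Of 9 tested haem and haemoglobin genes, 2 rose in WT, haptoglobin Hp (2.79) and haem oxygenase Hmox1 (1.55), and 2 fell, the iron exporter Slc40a1 (-1.999) and biliverdin reductase Blvra (-1.18); Hp also rose in Pim1-/- (1.79). The share lower in WT is below that of all tested genes, and with median scaling 3 rose and 1 fell in WT, and 1 rose and 1 fell in Pim1-/-. Of 4 tested partners of SR-BI, its adaptor Pdzk1 fell in both genotypes (-3.05 and -1.94). Of 6 tested sheddases and sorting adaptors, 3 fell in WT, the protease Adam10 (-2.38) and the adaptor Gga2 (-2.23) most, and both also fell in Pim1-/- (-1.85 and -2.01). With median scaling 2 of the 6 fell in WT and 1, Gga2, in Pim1-/-, where Adam10 had an adjusted p of 0.0530. Lower with the loss of Pim1 in PBS were Lrp5 (-2.42), Lrp6 (-1.85), Fyn (-2.04), Cebpa (-3.53), Lamp1 (-4.20), Npc1 (-1.77) and Pdzk1 (-1.61), and with median scaling none of the listed genes passed. Lamp1 stood at 3455 ± 307 TPM in WT PBS and at 205 ± 97.3 TPM in Pim1-/- PBS. In oxLDL the loss of Pim1 gave no call in any of these lists.

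Markers of other macrophage states were summed by list. The list for small peritoneal or monocyte-derived macrophages, 6 genes, summed to 6.72 to 56.1 TPM in WT PBS and 30.0 to 108 TPM in WT oxLDL. It summed to 7.46 to 13.6 TPM in Pim1-/- PBS and 88.3 to 115 TPM in Pim1-/- oxLDL. The higher sums in oxLDL come from the monocyte marker Ly6c2, which read 0 TPM in each of the 3 WT controls and 107, 81.8 and 25.5 TPM in WT oxLDL. Other genes of the list went the other way in WT: Ccr2 fell (-1.82, limma adjusted p = 0.00638) and Fcrls fell (-1.38, limma adjusted p = 0.0429). Irf4 had a change of -1.76 that did not pass (limma adjusted p = 0.0911). It read 42.6 TPM in library 3 of WT PBS, against 1.91 and 2.59 TPM in libraries 1 and 2. With median scaling Fcrls did not pass (adjusted p = 0.266). The list for large peritoneal macrophages, also 6 genes, summed to 19.3 to 42.8 TPM with PBS and 10.9 to 29.8 TPM with oxLDL in WT, and to 11.3 to 18.0 TPM and 11.3 to 15.5 TPM in Pim1-/-, so the ranges overlapped in both genotypes. Its defining factor Gata6 was not called in WT (-1.76, limma adjusted p = 0.0561) or Pim1-/- (-1.02, adjusted p = 0.337), and Prg4 rose in WT (1.14, adjusted p = 0.0460). The part of these marker genes in the changes of the receptors was not tested.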

How the data were processed

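Bulk RNA-seq of 12 macrophage libraries in 4 groups was analysed from 1 table of TPM per gene deposited by the authors. Per the submitters' processing notes the tools were Salmon and DESeq2 with mm10; no role or version is stated there. Depth cannot be had from TPM, so no count model and no counting interval could be used. Values were analysed as log2(TPM + 1) in limma 3.58.1 (R 4.3.3) on 12594 of 24279 rows (at least 1 TPM in at least 3 libraries), with 4 group means, 8 residual degrees of freedom, an intensity trend and Benjamini-Hochberg adjustment over all tested genes. The fit was tested on simulated data. The changes of low genes are understated on this scale. The members and lists were chosen with earlier results of these data known. Genes named beside the members are up to 3 with the smallest SD of the log2 ratio, and up to 2 called genes with the largest change per list, direction and comparison; Lamp1 and Pparg levels, and values of a listed gene in the other genotype, are added, and some that meet this rule are not reported here. Positions come from GENCODE M21 (GRCm38) and promoters from RefSeq (GRCm38.p6), which held 7 of the 9 genes. Same-numbered libraries were checked for pairing. Alternatives were other pseudocounts, filters, scalings, a replicate block, a fit restricted to each comparison, and leaving out libraries.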

Additional observations from a re-analysis of the deposited data

Results flagged for a closer look

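The effect of losing Pim1 on Marco had opposite directions in the 2 treatments. In PBS all 3 Pim1-/- libraries were above all 3 WT libraries, with a log2 change of 1.27 (SE 0.548, limma adjusted p = 0.150). In oxLDL all 3 were below, with a log2 change of -1.92 (SE 0.548, limma adjusted p = 0.360). The difference between the 2 was tested as the difference of the oxLDL responses, -3.19, with a limma p of 0.00100 and an adjusted p of 0.986, so it did not pass over all tested genes. Marco levels in PBS were at most 3.73 TPM.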

How the results depend on the processing

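Olr1 in both genotypes and Marco, Scarb1 and Stab1 in WT kept their direction and call with oxLDL in all 12 fits that left out 1 library. Leaving out 1 library gave 4 to 5 called members for oxLDL in WT, 1 to 3 for oxLDL in Pim1-/- (1, Olr1, without library 2 or 3 of Pim1-/- oxLDL), 0 to 1 for the loss of Pim1 in oxLDL (Marco, without library 2 of WT oxLDL) and 0 to 3 for its averaged loss. The counts of all genes called in the same fits are given below. Without both WT PBS 3 and WT oxLDL 2 the loss of Pim1 gave 1 member in oxLDL (Marco), where 827 of the 12594 tested genes were called. Averaged over treatments it gave 4 members (Cd36, Msr1, Stab1, Cd68), where 3220 genes were called. WT PBS 3 and WT oxLDL 2 were the lowest of their groups in Cd36, Msr1 and Stab1 and the highest in Cd68. Leaving them out must widen these differences, as for Marco in oxLDL, so this fit cannot serve as a test of these genes. The averaged loss gave 2 (Cd36, Cd68) with a minimum of 5 TPM and 1 (Cd68) with median scaling, with rescaling without Rn45s and Mir6236, or without the intensity trend. All genes called in these settings numbered 1614, 1093, 1290 and 1404, in that order. In PBS the loss of Pim1 gave 0 members in every setting. The cause of these differences was not tested.

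Genes with little change switched sign. With median scaling Scarb2 had 0.73 for oxLDL in WT, 0.42 for oxLDL in Pim1-/- and 0.49 for the loss of Pim1 in PBS. With quantile normalization Msr1 had -0.10 and Cd68 -0.18 for oxLDL in WT, Msr1 -0.24 and Cd68 -0.21 for oxLDL in Pim1-/-, and Scarb2 0.26 for the loss of Pim1 in PBS. With Rn45s and Mir6236 left out Msr1 had -0.084 for oxLDL in Pim1-/-, Scarb2 0.12 for the loss of Pim1 in PBS, and Scarb1 -0.083 and Scarb2 -0.089 for its loss in oxLDL; without both WT PBS 3 and WT oxLDL 2 the last was -0.045. Leaving out 1 library, the ranges were -0.43 to 0.43 (Msr1), -0.46 to 0.015 (Scarb2) and -0.078 to 0.62 (Cd68) for oxLDL in WT, -0.51 to 0.50 (Msr1) and -0.36 to 0.16 (Scarb2) for oxLDL in Pim1-/-, -0.34 to 0.18 (Scarb2) for the loss of Pim1 in PBS, and -0.35 to 0.28 (Scarb1) and -0.20 to 0.27 (Scarb2) for its loss in oxLDL.

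Of 18 same-numbered pairs of libraries 5 deviated together with a correlation over 0.1, so the numbers were not taken to pair samples. With a replicate block 2 members were called for oxLDL in Pim1-/- (Olr1, Stab1), where 1117 genes were called, and Scarb1 had an adjusted p of 0.0873. In WT 5 members were called with the block, where 3531 genes were called. The count of all genes called for the loss of Pim1 in PBS was 588, and 7 with median scaling, 96 without a filter, 198 with a pseudocount of 0.1, 170 without Rn45s and Mir6236, 321 with the block, 46 in a fit of its own groups and 2 to 1669 leaving out 1 library. For oxLDL in WT 4137 genes were called, 2569 with median scaling and 2658 with quantile normalization. The averaged loss gave 1404 calls, 333 without a filter and 877 with the block. Leaving out 1 library gave 2591 to 5114 calls for oxLDL in WT, 688 to 2307 for oxLDL in Pim1-/- (1542 with all libraries), 1 to 317 for the loss of Pim1 in oxLDL (1 with all), 0 to 3 for the difference of the responses (1 with all) and 310 to 2693 for the averaged loss. Without both WT PBS 3 and WT oxLDL 2 the loss of Pim1 gave 1164 calls in PBS, 827 in oxLDL and 3220 averaged.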
